A study of Mus musculus with 22 samples.

Results

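Cortical microglia were compared directly with layer V cortical pyramidal neurons by the messenger RNA bound to their ribosomes. The members are 6 of the 22 libraries of the series, chosen by their labels: the 3 microglia libraries and the 3 layer V libraries labelled batch 1. All mice were 6 weeks old and carried 1 RiboTag allele (Rpl22 Fl/+), which adds an HA epitope tag to the ribosomal protein RPL22 after Cre recombination, so that ribosomes of the Cre-expressing cells can be pulled from homogenised cortex with anti-HA beads. The layer V libraries came from Rpl22 Fl/+, Rbp4-Cre mice (a BAC transgene, active without a drug; 2 females and 1 male), and the microglia libraries from Rpl22 Fl/+, Tmem119-cre mice (1 female and 2 males). Per the study's methods the microglial driver is a CreERT2 inserted at the Tmem119 locus and needs tamoxifen, which the layer V mice did not need. All 3 microglia libraries belong to batch 2, so the labelled batch and tamoxifen go with the cell type and their shares of a difference cannot be told apart. A further layer V library, batch 2 of replicate 1, served as a check.

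Microglia are the resident macrophages of the brain. They enter it in the embryo from the yolk sac, depend on the receptor CSF1R for survival, and survey the tissue with purinergic receptors, complement and phagocytic receptors. Layer V pyramidal neurons are the large excitatory projection neurons of the cortex, which send axons to targets that include the brainstem, spinal cord and striatum. The transcription factors FEZF2 and BCL11B (CTIP2) specify the subcerebral projection neurons among them. The cells meet through neuronal ligands such as CX3CL1 and IL-34 and their microglial receptors.

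Estimated counts per library lay between 50308142 and 70663176 in microglia and between 53999691 and 65977155 in layer V neurons, and the batch 2 layer V library held 95772158. Replicates of a cell type differed beyond counting noise (chi-square over degrees of freedom of 8.92 or more), and all were kept as separate samples. The batch 1 and batch 2 layer V libraries of replicate 1 also exceeded it (3.38), so this measure does not show that libraries came from different animals. The labels do not say which animals gave which library beyond replicate and sex, and p-values measure the spread between these samples. Xist and 4 Y-linked genes fitted the labelled sex of all 6 libraries. The batch 2 layer V library is labelled male but read as female, like its batch 1 counterpart (Xist at 12.6 and 13.3 CPM, Ddx3y at 0.043 and 0.15 CPM). CPM here are counts relative to library size, scaled for composition by TMM, and log2 fold changes are microglia over layer V, so positive values are higher in microglia.

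The genes whose promoters or products mark each cell checked the labels. Tmem119 (ENSMUSG00000054675, chr5:113793729-113800516, minus strand, GRCm38), a transmembrane protein of microglia, stood at 1738, 1835 and 1723 CPM in the 3 microglia libraries and at 0.79, 0.78 and 0.89 CPM in the 3 layer V libraries. Its log2 fold change was 11.07 (SE 0.08), and the batch 2 layer V library held 0.90 CPM. Bcl11b (chr12:107910403-108003602, minus strand) stood at 164.0, 157.4 and 157.8 CPM in layer V neurons and at 17.99, 17.8 and 18.6 CPM in microglia, a log2 fold change of -3.14 (SE 0.04). Both groups were far apart for both genes. Tmem119 was nearly absent from layer V neurons, whereas Bcl11b stood at 11.34% of its layer V level in microglia. In bulk libraries of this kind, fewer cells of a type and less RNA per cell cannot be told apart.

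**Figure D1:**
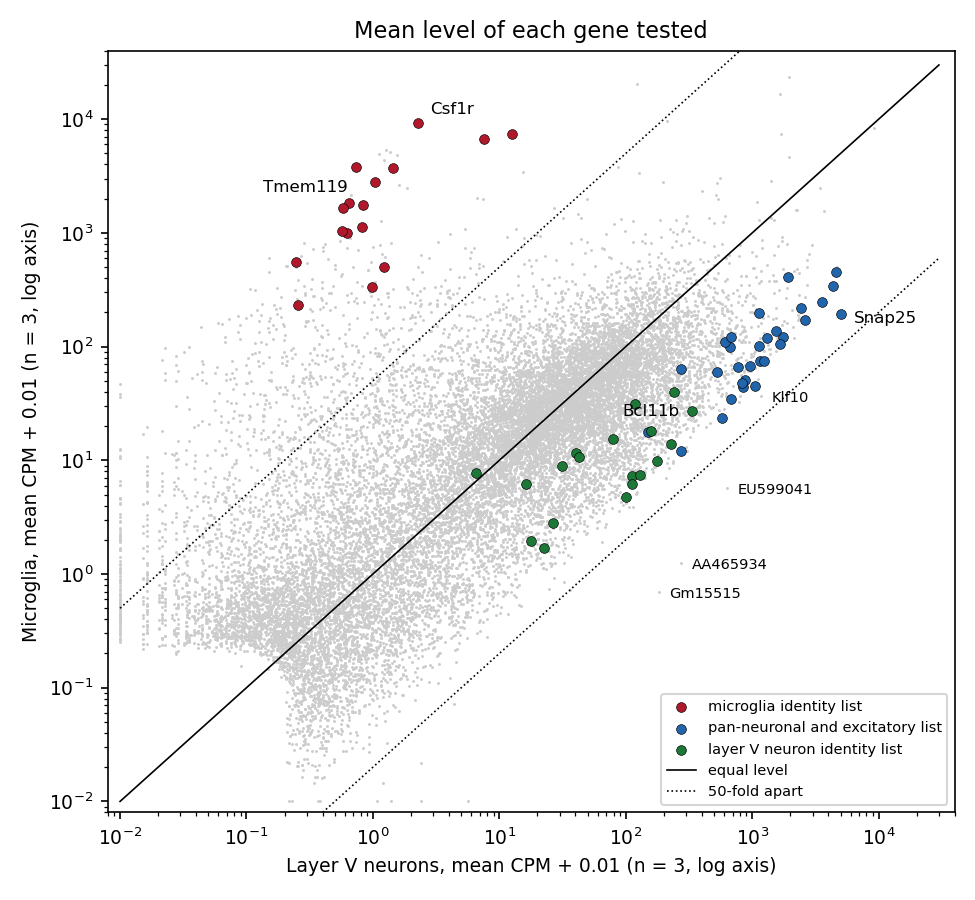
Mean CPM in microglia (vertical, log axis) against mean CPM in layer V neurons (horizontal, log axis) for the 18972 genes tested, 0.01 added to each; coloured points are members of 3 gene lists, the solid line marks equal levels and the dotted lines a 50-fold difference. Microglial identity genes lie far above the upper dotted line, while Snap25 and the other neuronal genes stay inside the lower one.

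Most genes differed between the 2 cell types. Of 18972 genes tested by edgeR's quasi-likelihood test, 6118 were at least 2-fold higher in microglia at an adjusted p of 0.05 (32.2% of genes tested) and 5399 exceeded that fold in the layer V libraries (28.5%). The remaining genes either passed with a smaller fold (5042) or did not pass (2413), and the median log2 fold change of all genes was 0.07. At a 50-fold threshold the 2 directions parted. Then 908 genes were higher in microglia (4.79% of genes tested) and 18 in layer V neurons (0.0949%). Leaving out 1 library at a time gave 910 to 979 genes in microglia and 19 to 44 in layer V neurons, the larger of these when a microglia library was left out.

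The 10 largest differences among genes with at least 100 CPM in microglia were those of Selplg, C1qc, Crybb1, Ctss, Csf1r, Susd3, C1qb, Laptm5, Tmem173 and Sash3, with log2 fold changes from 11.68 to 12.33. Selplg, which encodes the selectin ligand PSGL-1, stood at 3834, 3914 and 3661 CPM in microglia and at 0.74, 0.86 and 0.58 CPM in layer V neurons. Csf1r, the receptor for CSF1 and IL-34, stood at 9559, 9527 and 8814 CPM against 2.32, 2.33 and 2.07 CPM (log2 fold change 12.01, SE 0.10). Ctss, the lysosomal protease cathepsin S, stood at 5464, 5530 and 4940 CPM against 0.93, 1.41 and 1.47 CPM. Every one of these genes was at or below 2.33 CPM in each batch 1 layer V library. Susd3, Sash3 and Tmem173 had 6, 8 and 16 counts there over the 3 libraries together, so their folds and ranks rest on few reads. Per length, the most abundant protein-coding messages of microglia were those of the cystatin Cst3 (52121 ± 2889 TPM, SD, n = 3) and the actin-binding peptide Tmsb4x (11753 ± 659 TPM), against 288.7 and 2190 TPM in layer V neurons. The short RNA genes Mir6236, Gm23935 and Gm24270 had the highest TPM in layer V neurons (61803, 23433 and 23433 TPM), and the last 2 had equal values in every library. These ranks rest on the scaling for length. In CPM the same genes stood at 648.1, 186.9 and 186.9 in layer V neurons, below Snap25 at 5046. Mir6236 was high in microglia too (26993 TPM), above Tmsb4x. Mitochondrially encoded genes were left out of these rankings.

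All 16 genes of a microglial identity list were higher in microglia, with a median log2 fold change of 10.95 beside 0.07 over all genes. The fractalkine receptor Cx3cr1 stood at 3799, 3733 and 3526 CPM in microglia and at 1.27, 1.52 and 1.53 CPM in layer V neurons. The ADP receptor P2ry12, which guides microglial processes, stood at 995.5, 1070 and 909.0 CPM against 0.60, 0.63 and 0.60 CPM. The smallest fold of the list was that of Aif1, which encodes IBA1, at 336.8 ± 12.2 CPM (SD, n = 3) against 0.98 ± 0.23 CPM (log2 fold change 8.41).

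Surface receptors followed the same direction in all 26 of 26 members (median 9.76). Trem2, a lipid-sensing receptor, stood at 766.1, 812.3 and 766.7 CPM against 1.32, 1.14 and 0.92 CPM, and its signalling adaptor Tyrobp at 736.3, 718.2 and 698.4 CPM against 0.23, 0.30 and 0.45 CPM. The ATP-gated channel P2rx4 had the smallest fold of the list, at 44.9 ± 1.90 CPM against 12.8 ± 1.20 CPM. Siglece, an inhibitory lectin, had 76.1 CPM in microglia and 2 counts in the 3 layer V libraries together, which is too few for a fold.

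Of 15 complement genes, 13 were higher in microglia and 1 in layer V neurons. C1qa, C1qb and C1qc, whose products form the recognition molecule C1q, stood at 4836 ± 89.2, 5175 ± 42.9 and 4903 ± 102 CPM in microglia and at means of 1.11 to 1.54 CPM in layer V neurons. C3, the central component that C1q activation leads to, was low in both, at 2.84 and 0.09 CPM. The exception was Cd55, an inhibitor of complement convertases, which was at 8.02 ± 0.74 CPM in layer V neurons and 1.73 ± 0.38 CPM in microglia (log2 fold change -2.20, SE 0.17). Cd59a, an inhibitor of the terminal complex, passed the test with a fold under 2 (0.57).

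Lysosomal genes were higher in microglia in 24 of 25 cases (median 4.45). Their folds spread more widely than those of the identity genes, from cathepsin S at 12.02 to prosaposin (Psap) at 1.28. Ctsd, an aspartic protease of all cells, stood at 9493, 9787 and 9613 CPM in microglia and at 215.4, 214.1 and 209.7 CPM in layer V neurons. Ctsb stood at 2158 ± 60.04 CPM against 519.8 ± 4.48 CPM, which per length was 1301 against 291.0 TPM. The lysosomal calcium channel Mcoln1 was the list's exception, at 43.7 ± 1.79 CPM in microglia and 52.2 ± 0.63 CPM in layer V neurons (log2 fold change -0.26, SE 0.05), and its sign turned on the TPM scale.

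The promoters of 3 cathepsins are shown because their windows hold a motif searched here, with log2 fold changes of 12.02 (Ctss), 8.52 (Ctsc) and 5.50 (Ctsd). They are RefSeq windows of GRCm38.p6 from 250 bases before to 50 after the gene start, printed on the gene's own strand. In Ctss (chr3:95526536-95526835, plus strand) and Ctsc (chr7:88277835-88278134, plus strand) capitals mark GAGGAAGT, a sequence bound by PU.1, read on the opposite strand. In Ctsd (chr7:142387778-142388077, minus strand) capitals mark CACGTG, the E-box core bound by TFEB and other bHLH factors.
Ctss: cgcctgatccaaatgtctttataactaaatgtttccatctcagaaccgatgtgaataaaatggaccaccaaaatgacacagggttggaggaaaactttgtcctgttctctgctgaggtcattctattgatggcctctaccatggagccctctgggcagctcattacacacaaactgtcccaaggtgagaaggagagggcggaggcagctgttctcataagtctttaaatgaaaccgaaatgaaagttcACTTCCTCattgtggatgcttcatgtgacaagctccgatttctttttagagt
Ctsc: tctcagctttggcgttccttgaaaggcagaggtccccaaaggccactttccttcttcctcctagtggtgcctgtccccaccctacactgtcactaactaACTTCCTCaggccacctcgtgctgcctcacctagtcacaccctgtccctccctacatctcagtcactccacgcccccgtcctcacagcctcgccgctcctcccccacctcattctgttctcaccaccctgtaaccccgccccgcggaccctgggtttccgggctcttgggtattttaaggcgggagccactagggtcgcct
Ctsd: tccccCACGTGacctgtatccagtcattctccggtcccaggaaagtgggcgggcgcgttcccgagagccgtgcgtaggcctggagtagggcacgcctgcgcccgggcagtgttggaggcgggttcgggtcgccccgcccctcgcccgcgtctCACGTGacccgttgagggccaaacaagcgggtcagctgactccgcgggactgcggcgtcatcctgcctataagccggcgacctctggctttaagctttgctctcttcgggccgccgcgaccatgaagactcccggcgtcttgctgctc

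Searched on both strands of the same windows, GAGGAAGT was present at 3.69% of the 27025 genes with a window and at 3.495% of the 13191 tested genes with one. It was present at 11.56% of the 649 genes with a window that were at least 50-fold higher in microglia. Of the 547 that passed 10-fold in the layer V libraries, 2.01% held it. At the like threshold of 2-fold the shares were nearer, at 4.92% for microglia and 2.78% for layer V neurons. CACGTG was present at 8.09% of all genes with a window, at 10.86% of the tested ones and in 8 of 22 lysosomal genes (Ctsa, Ctsd, Ctsf, Ctsl, Lamp1, Lgmn, Mcoln1 and Naglu). It was present at 8.94% of the genes 50-fold higher in microglia. A match is a stretch of letters and not a measured binding site, and no test was run on these shares.

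All 26 genes of innate sensing were higher in microglia (median 7.40). The endosomal RNA sensor Tlr7 stood at 168.6, 217.7 and 187.9 CPM in microglia and at 0.72, 0.53 and 0.47 CPM in layer V neurons. The inflammasome sensor Nlrp3 stood at 84.8, 59.6 and 62.0 CPM against 0, 0.016 and 0.038 CPM. Of the cytokines that these pathways release, Il1b and Tnf were low in both cell types. Il18 stood at 23.2 ± 0.07 CPM in microglia against 2.34 ± 0.26 CPM in layer V neurons (log2 fold change 3.31). Il1b stood at 1.80, 0.78 and 0.69 CPM in microglia and at 0.43 to 0.52 CPM in layer V neurons (log2 fold change 1.13, SE 0.38). Its groups did not overlap, as for 16834 of the 18972 genes tested. Its call was lost against the batch 2 layer V library alone (adjusted p = 0.185), with 22 libraries and a batch term (0.227) and without layer V replicate 3 (0.0619). Tnf was at 0.31 ± 0.02 CPM in microglia and at 0 counts in each layer V library, at least 5.79-fold higher against a floor of 3 counts per library.

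Of 17 genes of antigen presentation, 16 were tested and all 16 were higher in microglia (median 5.84). The class I gene H2-K1 stood at 319.1, 294.6 and 349.5 CPM against 1.44, 1.49 and 1.36 CPM. The class II chain H2-Aa was lower, at 2.75 and 0.05 CPM. Among 22 chemokine and cytokine genes tested of 24, 18 were higher in microglia and 2, Cx3cl1 and Il34, in layer V neurons (median 7.78, or 7.33 with Ccl4 at its bound). Ccl4 had 5.13, 6.33 and 6.65 CPM in microglia and no count in layer V neurons, at least 113-fold higher.

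Genes known from disease-associated microglia were higher in microglia than in neurons in 15 of 19 cases (median 5.30). Apoe stood at 1566, 1313 and 1484 CPM in microglia and at 41.5, 44.96 and 39.7 CPM in layer V neurons. Lpl, a lipase of the later disease state, differed by less than 2-fold (27.6 against 14.5 CPM), and Gpnmb was low in both (0.84 against 0.27 CPM). Ank, a pyrophosphate transporter, was higher in layer V neurons (181.5 ± 1.52 against 57.7 ± 2.54 CPM, log2 fold change -1.65).

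Of 23 transcription factors known from microglia, 19 were higher in microglia and 2 in layer V neurons (median 6.09). Spi1, which encodes PU.1, stood at 473.3, 460.9 and 423.1 CPM against 0.21, 0.14 and 0.08 CPM (log2 fold change 11.62, SE 0.13). Irf8 stood at 357.6, 296.4 and 248.2 CPM against 0.72, 1.13 and 0.98 CPM. Sall1, which maintains microglial identity, stood at 505.0 ± 60.2 against 1.21 ± 0.07 CPM. The exceptions are also used by neurons. Mef2c, an activity-regulated factor of excitatory neurons as well as of microglia, was at 961.6 ± 7.31 CPM in layer V neurons and 295.9 ± 12.3 CPM in microglia (log2 fold change -1.70), and Bhlhe40 at 188.2 ± 31.4 against 24.5 ± 1.85 CPM (-2.94). Rest, which encodes a repressor of neuronal genes outside neurons, stood at 43.7, 43.6 and 36.7 CPM in microglia and at 1.27, 1.00 and 1.02 CPM in layer V neurons (log2 fold change 5.24); it was looked up after other values were known.

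**Figure D2:**
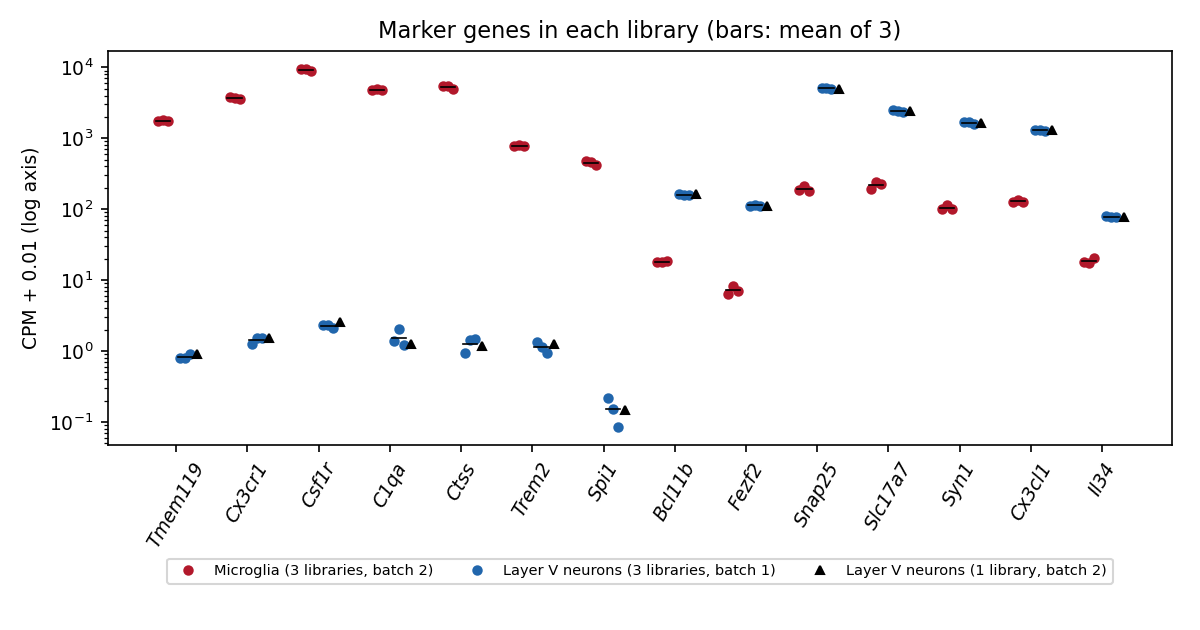
CPM (log axis, 0.01 added) of 14 genes in each library: red points are the 3 microglia libraries, blue points the 3 batch 1 layer V libraries, triangles the batch 2 layer V library and bars the means. The 7 microglial genes on the left lie at or below 2.33 CPM in each batch 1 layer V library, whereas the 7 neuronal genes on the right keep means of 7.20 to 219.5 CPM in microglia.

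Of 19 layer V identity genes, 18 were higher in layer V neurons (median -3.22). Fezf2, the selector gene of subcerebral projection neurons, stood at 111.4, 115.2 and 111.8 CPM in layer V neurons and at 6.36, 8.28 and 6.95 CPM in microglia. Crym, which encodes a thyroid hormone-binding protein, stood at 174.3, 179.9 and 175.7 CPM against 10.4, 9.31 and 9.99 CPM. Rbp4, the source of the driver's promoter, stood at 22.4 against 1.67 CPM. Sulf1 did not pass the test, at 6.51 ± 0.22 CPM in layer V neurons and 7.70 ± 1.81 CPM in microglia.

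All 30 pan-neuronal and excitatory genes were higher in layer V neurons (median -3.74), with log2 fold changes between -4.71 and -2.10. Snap25, a SNARE protein of synaptic vesicle fusion, stood at 5030, 5122 and 4987 CPM in layer V neurons and at 188.0, 210.3 and 179.4 CPM in microglia. Slc17a7, the vesicular glutamate transporter of cortical pyramidal neurons, stood at 2463, 2427 and 2359 CPM against 193.8, 241.7 and 223.1 CPM. The glutamate receptor subunit gene Gria1 had the smallest fold of the list, at 280.7, 258.9 and 277.1 CPM against 62.3, 62.6 and 65.0 CPM.

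Of 21 cortical neuron transcription factors, 17 were higher in layer V neurons and 2 in microglia (median -3.06). Neurod6, Neurod2 and Tbr1, which specify cortical excitatory neurons, had log2 fold changes from -4.34 to -3.42. Cux1 was higher in microglia (171.0 ± 6.36 against 44.1 ± 2.35 CPM, log2 fold change 1.95). St18 was at 1.06 against 0.52 CPM (log2 fold change 1.02), and its call was lost against the batch 2 layer V library alone (adjusted p = 0.0975).

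Genes of excitability and the synapse were higher in layer V neurons almost throughout. Of 22 glutamate receptor genes 21 were called higher there (median -2.54), the exception being the kainate receptor gene Grik1 with a fold under 2 (5.10 against 3.30 CPM). Of 28 sodium and calcium channel genes 24 were called higher in layer V neurons (median -2.44), with Scn2a, the axonal sodium channel, at 362.0 ± 6.67 against 33.8 ± 3.47 CPM. Of 27 potassium channel genes 22 were higher in layer V neurons and 3 in microglia. These 3 were Kcnk6 (247.9, 318.1 and 316.8 CPM against 2.06, 2.18 and 1.85 CPM), Kcnk13, which encodes the leak channel THIK-1 (33.5 against 3.33 CPM), and the calcium-activated Kcnn4 (2.29 against 0.05 CPM).

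All 26 genes of synaptic vesicle release were higher in layer V neurons (median -3.44), as were 19 of 21 postsynaptic genes (median -2.78), with Shank2 and Shank3 under 2-fold. Of 28 axon guidance genes, 20 were higher in layer V neurons and 5 in microglia. The 5 were Plxnb2, Nrp1, Sema4b, Sema4d and Robo3. Plxnb2, a semaphorin receptor, stood at 957.7, 988.8 and 853.4 CPM in microglia and at 21.02, 21.1 and 20.4 CPM in layer V neurons (log2 fold change 5.48, SE 0.07), while Epha4 stood at 17.8 against 266.5 CPM.

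Of 21 immediate early genes, 5 were higher in microglia and 6 in layer V neurons (median -0.33), shares close to the 32.2% and 28.5% of all genes tested. Fos, Fosb, Egr1, Egr3, Egr4 and Nr4a2 were the 6. Egr3 stood at 256.8, 261.8 and 305.7 CPM in layer V neurons and at 31.4, 32.2 and 28.4 CPM in microglia. Atf3, Btg2, Klf2, Klf4 and Zfp36 were higher in microglia, Zfp36, an mRNA decay factor of inflammatory transcripts, at 54.2 ± 6.17 against 0.46 ± 0.13 CPM. Cytoskeletal isotypes divided between the cell types, with 10 of 24 higher in microglia and 12 in layer V neurons. The neuronal tubulin Tubb3 stood at 853.1 ± 15.2 CPM in layer V neurons against 44.5 ± 1.56 CPM, and the leukocyte actin bundler Lcp1 at 620.1 ± 41.9 CPM in microglia against 1.24 ± 0.11 CPM.

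**Figure D3:**
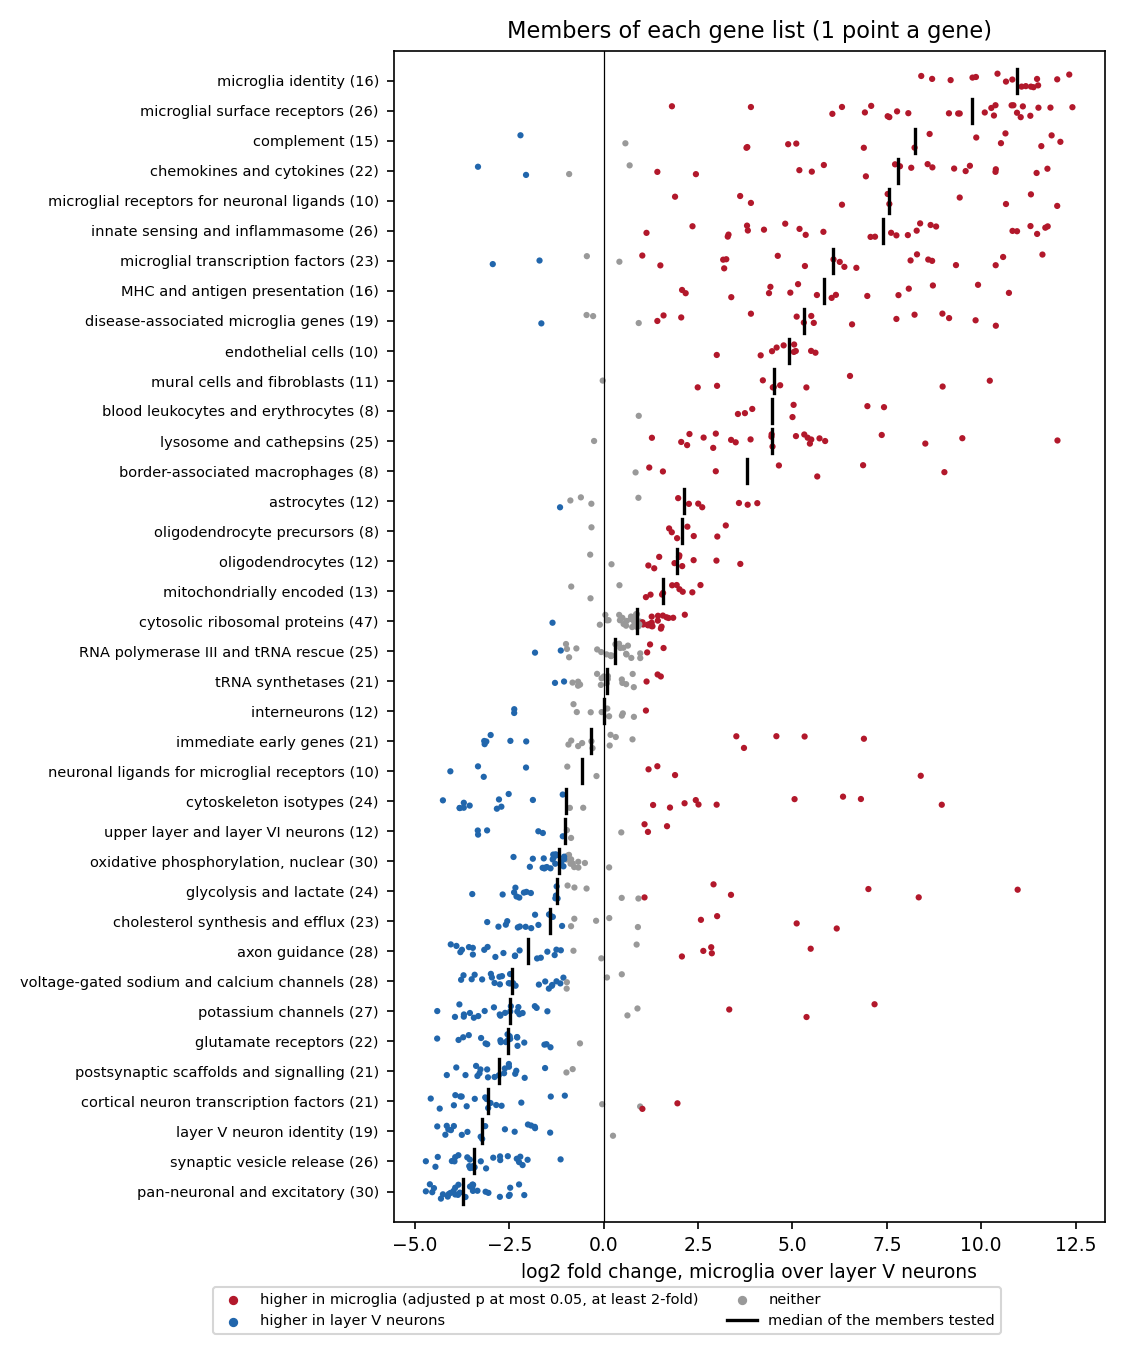
Log2 fold change, microglia over layer V neurons, of each tested member of 38 gene lists (1 point a gene, black bars the list medians, number tested in brackets); red points were at least 2-fold higher in microglia and blue points in layer V neurons at an adjusted p of 0.05. Microglial identity genes reach 12.33, while no member of a neuronal list lies below -4.71.

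The genes with the largest folds in layer V neurons at 100 CPM or more were of another kind than the marker lists. They included Gm15515 (a processed pseudogene), AA465934 and EU599041 (noncoding RNA genes), Klf10, Necab1, Tafa1, Dok6, Snap25 and Plcxd2, with log2 fold changes from -8.01 to -4.70. Klf10, which encodes a zinc finger factor induced by TGF-beta, stood at 998.8, 1076 and 1452 CPM in layer V neurons and at 34.5, 38.4 and 38.4 CPM in microglia. Of its layer V counts, 96.5% were assigned to a single transcript of 326 bases. Summed over its other 5 transcripts, Klf10 stood at 40.96 ± 8.16 CPM in layer V neurons and 10.9 ± 0.96 CPM in microglia (a log2 ratio of means of -1.92, with no test). EU599041 and AA465934 likewise had nearly all layer V counts in 1 transcript each (100% and 99.99%), and 13.3% of the 31-base words of the EU599041 transcript and 14.3% of those of Gm15515 occur in transcripts of other genes, so their reads are partly ambiguous.

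These 4 genes also differed between the layer V libraries themselves. In the batch 2 library of replicate 1, Klf10 stood at 470.1 CPM against 998.8 in batch 1, EU599041 at 205.9 against 501.2, AA465934 at 115.8 against 163.0 and Gm15515 at 81.0 against 141.0 CPM. All 4 remained above their highest microglia library there. Necab1, Snap25 and Tafa1 differed by less than 2% between the same libraries (for Tafa1, 110.4 against 110.5 CPM). Of the 18 genes past 50-fold in layer V neurons, 8 had no count in any microglia library. Among the rest, the neuropeptide gene Trh, named after its values were seen, stood at 36.4 CPM in layer V neurons, 35.6 CPM in the batch 2 library and 0.71 CPM in microglia.

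Ligands and receptors that join the cells were examined as pairs. Cx3cl1, the fractalkine ligand, stood at 1312, 1324 and 1253 CPM in layer V neurons and at 125.8, 133.4 and 127.4 CPM in microglia (log2 fold change -3.33, SE 0.05), opposite to its receptor Cx3cr1 (11.32). Il34 stood at 81.2, 77.1 and 76.8 CPM against 18.1, 17.5 and 20.8 CPM, opposite to Csf1r. Csf1, the other ligand of that receptor, was higher in microglia, at 25.6 ± 2.58 against 9.58 ± 0.51 CPM. Cd200 and Thy1 were higher in layer V neurons (log2 fold changes -3.18 and -4.06), and Cd200r1 in microglia at 5.19 against 0.42 CPM. The "eat me" bridging ligands were both higher in microglia, Gas6 at 235.2 against 103.2 CPM and Pros1 at 325.8 ± 31.8 against 0.95 ± 0.26 CPM. Of the 10 receptors all were higher in microglia. Sirpa, the receptor for CD47, had the smallest fold, at 1921, 2136 and 1889 CPM against 538.0, 534.4 and 531.8 CPM. Per length this was 972.4 against 243.6 TPM.

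Medians of the housekeeping lists lay between -1.43 (cholesterol genes) and 1.57 (mitochondrially encoded genes), and not all in one direction. Of 47 cytosolic ribosomal protein genes, 18 were called higher in microglia, 25 passed with a fold under 2 and 1 was higher in layer V neurons (median 0.88). Over all genes tested, 32.2% were called higher in microglia, a share near that of these genes, and 28.5% in layer V neurons. Rps9 stood at 563.6 ± 20.4 against 127.1 ± 3.15 CPM. Rpl22, the gene that carries the tag, stood at 94.0, 89.3 and 90.1 CPM in microglia and at 52.8, 55.5 and 53.7 CPM in layer V neurons, whereas its paralogue Rpl22l1 stood at 17.8, 16.5 and 17.3 against 41.998, 46.3 and 43.9 CPM. These opposite differences (0.75 and -1.36) both exceeded the spread between replicates.

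Of 30 nuclear-encoded oxidative phosphorylation genes, 19 were called higher in layer V neurons and none in microglia (median -1.17), with cytochrome c (Cycs) at 137.6 ± 4.71 against 26.3 ± 1.44 CPM. The mitochondrially encoded genes went the other way, with 10 of 13 higher in microglia (median 1.57). Over all genes tested, 28.5% were called higher in layer V neurons and 32.2% in microglia. mt-Co1 stood at 1156, 1290 and 1603 CPM in microglia and at 402.2, 481.3 and 477.7 CPM in layer V neurons. These messages are translated on mitochondrial ribosomes, which do not carry RPL22.

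Of 24 glycolysis and lactate genes, 13 were higher in layer V neurons and 6 in microglia (median -1.23). Over all genes tested these shares were 28.5% and 32.2%. The 6 were the transporters Slc2a1, Slc2a5, Slc16a1 and Slc16a3 and the hexokinases Hk2 and Hk3. The called enzymes after hexokinase, among them Gpi1, Pfkm, Gapdh, Pkm and Ldha, were all higher in layer V neurons. Among hexokinases, Hk1 stood at 682.8 ± 17.1 CPM in layer V neurons against 135.0 ± 2.56 CPM, while Hk2 stood at 305.4 ± 25.8 CPM in microglia against 2.34 ± 0.63 CPM and Hk3 at 122.0 ± 5.03 against 0.06 ± 0.03 CPM. Among hexose transporters, the neuronal glucose transporter Slc2a3 stood at 200.0 ± 7.47 CPM in layer V neurons against 31.2 ± 1.67 CPM, and the fructose transporter Slc2a5 at 243.3 ± 8.01 CPM in microglia against 0.73 ± 0.25 CPM. Cholesterol genes too were called in both directions. Of 23, 14 were higher in layer V neurons, and the 4 higher in microglia were Srebf1, Nr1h3, Apoe and the efflux pump Abca1 (138.7 ± 14.2 against 1.92 ± 0.10 CPM). Of 21 tRNA synthetase genes 3 were called higher in microglia and 2 in layer V neurons (median 0.08). Of 25 genes of RNA polymerase III and ribosome rescue the counts were 3 and 2 (median 0.31). These medians were among the smallest of the lists, and the counts lay below the shares of all genes tested (32.2% and 28.5%).

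Neuronal messages were present in every microglia library. Over the 30 pan-neuronal and excitatory genes, the mean microglia level was a median of 7.51% of the mean layer V level, with medians of 7.02%, 7.999% and 7.82% in the 3 libraries. Single genes ranged from 3.82% for Snap25 to 23.2% for Gria1. The share was not the same for all genes of a function. Vesicle genes had a median of 9.21% and postsynaptic genes 14.57%, and Gria2, Grin1, Camk2b and Cplx2 all lay between 17.5% and 21.1%. In the 3 batch 1 astrocyte libraries, another glial pull-down from the same series, the same 30 genes had a median of 14.41%. There Snap25 stood at 10.3% and Gria1 at 69.0% of the layer V level. The batch 2 layer V library held these genes at 96.4% to 104.4% of the batch 1 mean.

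The opposite background was smaller by orders of magnitude. Over the 16 microglial identity genes, the mean layer V level was a median of 0.051% of the mean microglia level, with medians of 0.048%, 0.051% and 0.055% in the 3 libraries and 0.059% in the batch 2 library. It ranged from 0.019% for Selplg to 0.29% for Aif1. In the astrocyte libraries the same genes had a median of 0.43%, with Sall1 at 13.5% and Sparc at 10.3%.

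**Figure D4:**
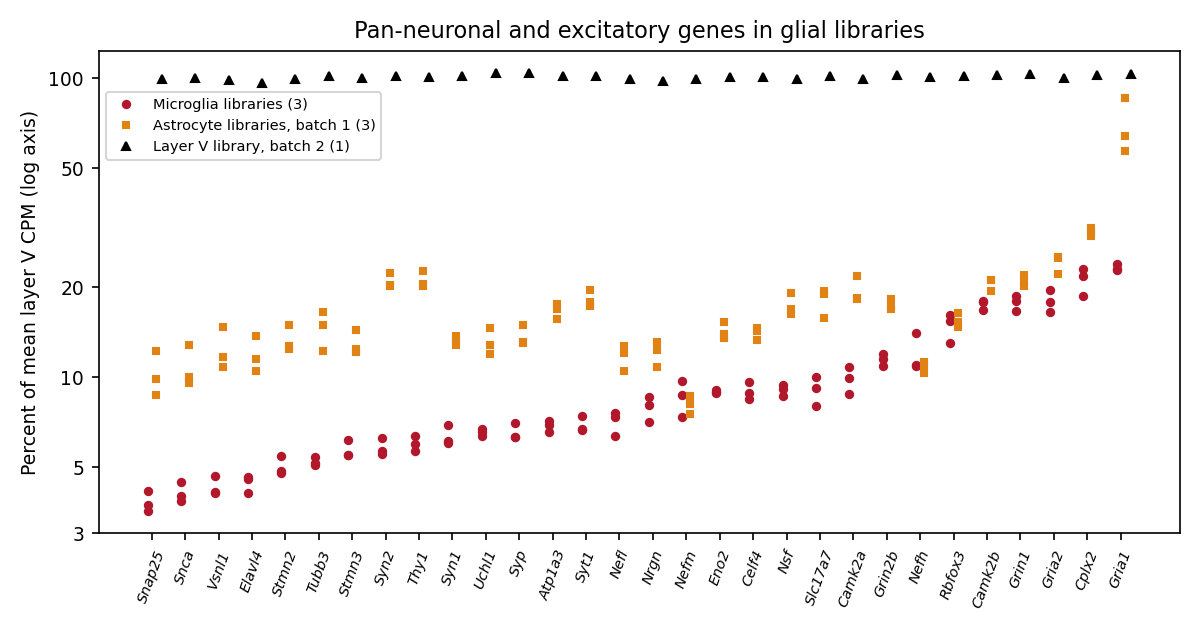
Level of each pan-neuronal and excitatory gene as a percent of the mean of the 3 batch 1 layer V libraries (log axis) in the 3 microglia libraries (red), the 3 batch 1 astrocyte libraries (orange squares) and the batch 2 layer V library (triangles). In microglia the genes run from 3.82% (Snap25) to 23.2% (Gria1), and the replicates lie close together.

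The same asymmetry held beyond the lists. Of the 1892 genes with at least 100 CPM in microglia, 271 were at least 50-fold higher there and 73 at least 1000-fold. Of the 2336 genes with at least 100 CPM in layer V neurons, 295 were at least 10-fold higher there, but 3 (the noncoding Gm15515, AA465934 and EU599041) were at least 50-fold higher and none 1000-fold. The 1st percentile of these genes was at 4.58% of the higher level in the neuronal direction and at 0.037% in the microglial one.

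**Figure D5:**
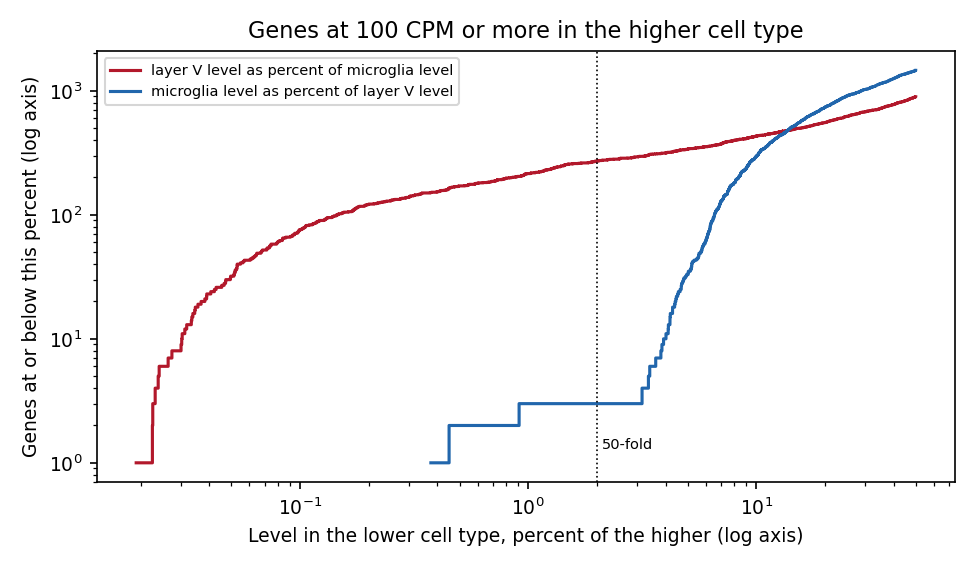
Number of genes (vertical, log axis) whose level in the lower cell type is at or below a given percent of the higher (horizontal, log axis), for genes with at least 100 CPM in the higher cell type; red, genes higher in microglia; blue, genes higher in layer V neurons; dotted line, 50-fold. Left of the dotted line lie 271 genes in red and 3 in blue.

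Markers of other cortical cells were measured beside these. Endothelial genes were higher in microglia libraries in 10 of 10 cases (median 4.90), with a summed level of 368.2 to 546.1 TPM against 18.6 to 21.03 TPM, and mural and fibroblast genes in 10 of 11 (387.0 to 964.1 against 54.3 to 71.4 TPM). Col1a1 varied between microglia libraries, at 625.8, 259.3 and 1326 CPM against 0.53 to 0.68 CPM in layer V neurons. Dcn, also on the mural and fibroblast list, stood at 41.2 ± 12.4 and 42.1 ± 6.82 CPM. Scaled over all 22 libraries, its batch 1 mean was 85.3 CPM in dentate gyrus granule cells and 0.21 CPM in cerebellar granule cells. Dcn thus also differed between neuron types, and its source in the layer V libraries was not tested. Astrocyte markers were higher in 7 of 12 cases and lower in 1, Aldh1l1 (median 2.11). Their summed level was 445.5 to 527.3 TPM in microglia, 288.7 to 300.1 TPM in layer V neurons and 17990 to 19610 TPM in the astrocyte libraries. Oligodendrocyte markers were higher in 10 of 12 cases (605.8 to 700.0 against 240.5 to 251.8 TPM) and those of their precursors in 7 of 8. Interneuron markers were higher in 1 of 12 cases and lower in 2 (Pvalb and Sst), and their median of 0.02 changed sign between alternatives. No list of these had a member at 0 in all libraries of either cell type except blood cell genes, with 1 in microglia and 3 in layer V neurons. Their part in the differences above was not tested.

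Macrophages of the brain's borders share much of the microglial programme. Of 10 of their markers 8 were tested and 7 were higher in microglia libraries. Stab1 stood at 509.2, 466.0 and 427.6 CPM and Mrc1, which encodes CD206, at 21.3, 18.6 and 14.8 CPM. The other markers tested (Cd163, Lyve1, Ms4a7, F13a1, Cbr2 and Folr2) were each at 1.52 CPM or less, beside 1765 CPM for Tmem119. Of 14 blood cell genes, 8 were tested and 7 called higher, led by the globin genes Hbb-bs (112.2 against 7.29 CPM) and Hba-a1 (75.3 against 6.36 CPM), and Ccr2, a monocyte receptor, stood at 1.80 CPM.

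The batch 2 layer V library allowed a comparison within a batch, with 1 layer V library and the 3 microglia libraries that the main comparison also used. It called 5906 genes higher in microglia and 5338 higher in the layer V library at 2-fold, and 965 and 18 at 50-fold. Of the genes called with batch 1, 5751 (94.0%) and 5194 (96.2%) were called again, and 1 had the opposite sign. Tested this way, the layer V spread is assumed to be that of the microglia libraries. Between the 2 layer V libraries of replicate 1, the median absolute log2 ratio was 0.061 and 2.83% of genes were more than 2-fold apart. Whether these 2 came from 1 animal is not known. Against batch 1 replicates 2 and 3 the batch 2 library gave 0.084 and 0.1045, with 2.73% and 3.23% of genes. Between batch 1 replicates the values were 0.091 to 0.108 and 3.23% to 4.21%.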

How the data were processed

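RiboTag mRNA was analysed in 6 of 22 libraries. Per the study's methods and labels, adapters were removed by the authors (cutadapt 3.5), and kallisto 0.46.2 assigned reads to GENCODE M24 transcripts (GRCm38). They deposited estimated counts per transcript, not normalized, and TPM, scaled for length and library. The authors' own test, sleuth, was not run.

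Estimated counts were summed per gene and rounded. Genes passing filterByExpr were tested with edgeR 4.0.16 (quasi-likelihood, TMM; R 4.3.3; Benjamini-Hochberg), with microglia and batch 1 layer V libraries in the fit. A call needed an adjusted p of at most 0.05 and at least 2-fold. On simulated data edgeR recovered 100 of 100 genes changed 2-fold and 100 of 100 changed 4-fold among 13667 genes. At the adjusted p alone it called 6 unchanged ones. Recovery there needed the same adjusted p but a fold limit below 2, so it does not show how many true 2-fold changes a call would miss. The simulation gave all genes the same spread between replicates and changed far fewer genes than were called here. Every library held at least 50308142 estimated counts, and replicates differed beyond counting noise, so 3 libraries per cell type limit the precision.

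The members, gene lists and tests were chosen with earlier results of these data known. Named genes are Tmem119, Bcl11b, the 10 largest folds per direction at 100 CPM or more, and the 3 highest in TPM per cell type that are not mitochondrially encoded. Per list they are the first 4 members, the extremes and members called against the majority. Other list members named were chosen after their values were seen. Klf10's transcripts, Rest, Trh and the promoter motifs were examined after values were seen. Some genes that the rule names are not reported here. Fam84b and Ctgf were read as Lratd2 and Ccn2. Coordinates are GENCODE M21, which located 18948 of the genes tested. Alternatives were DESeq2 1.42.0, limma 3.58.1 on log2(TPM + 0.5), other scalings and filters, sex and batch terms, all cell types, protein-coding genes, the batch 2 layer V library, the replicate number as a block, and leaving out each library. Tables were made in Python 3.11.15.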

Additional observations from a re-analysis of the deposited data

How the results depend on the processing

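The counts of genes past 2-fold stayed within 1.5 times the main ones under the 18 alternatives, from 4745 to 7541 in microglia and from 4376 to 6200 in layer V neurons. The count past 50-fold in microglia was 358 by limma on log2(TPM + 0.5). In layer V neurons the 18 genes past 50-fold became 4 by limma, 64 with no filter, 33 with 22 libraries and a batch term, 28 with 18 libraries, and 11 among protein-coding genes. With 1 library left out it lay between 19 and 44 (38, 38 and 44 without microglia replicate 1, 2 or 3). Neuronal background in microglia was 9.21% by the vesicle list and 14.57% by the postsynaptic list in place of 7.51%. Microglial background in layer V neurons was 0.0443% by TPM, 0.0585% in the batch 2 library and 0.118% by the surface receptor list in place of 0.0507%. Mcoln1 reversed to 0.17 by limma on TPM. The causes were not tested.

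Of 253 genes named by the rule, 4471 values over the alternatives kept sign and side of the threshold, 42 lost it, 26 gained it and 1 reversed. With the replicate number as a block, 6109 and 5408 genes were called past 2-fold, 902 and 19 past 50-fold. Same-numbered libraries correlated at 0.094, -0.005 and 0.105 in their deviations, so the numbers were not taken to pair samples.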

Other observations

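Xist, which is transcribed from the inactive X chromosome, stood at 234.3 CPM in the single female microglia library and at 13.3 and 15.3 CPM in the 2 female layer V libraries. Among male libraries the Y-linked gene Ddx3y stood at 28.2 and 25.9 CPM in male microglia and 38.8 CPM in the male layer V library. With 1 and 2 female libraries no test was made.

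Klf10 and EU599041 were lower in batch 2 than in batch 1 in cerebellar granule cells too, a comparison chosen after values were seen. Scaled over all 22 libraries, Klf10 stood at 316.2 CPM in the batch 2 cerebellar granule cell library and at 699.8, 891.3 and 953.1 CPM in the batch 1 ones. EU599041 stood at 156.0 CPM there against 331.9, 333.4 and 428.1 CPM. In dentate gyrus granule cells Klf10 stood at 70.9 CPM in batch 2 against 106.2 to 112.0 CPM. In the batch 2 astrocyte library Klf10 stood at 52.0 CPM, within the batch 1 range of 47.3 to 81.6 CPM, and in the batch 2 dentate gyrus granule cell library EU599041 stood at 9.54 CPM, above the batch 1 range of 1.10 to 4.05 CPM.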
